A study of Mus musculus with 18 samples.

Results

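The genes described here encode subunits of potassium, sodium and calcium channels, the membrane proteins that set the excitability of neurons. They were taken by symbol (the Kcn potassium families, the Scn sodium alpha and beta subunits, and the Cacna1, Cacna2d, Cacnb and Cacng calcium subunits), which gave 132 protein-coding genes of 47729 genes listed in the count files. RNA and chromatin came from the whole embryonic cortex of mice at day E15.5. All animals carried a conditional knockout (cKO) of BAF155, the product of Smarcc1 and a core part of the BAF chromatin remodelling complex, and had received either Vehicle or TSA (trichostatin A, an inhibitor of histone deacetylases). There were 4 Vehicle and 4 TSA libraries of RNA, and 4 Vehicle and 4 TSA libraries of chromatin precipitated with an antibody to H3K9ac, the acetylated lysine 9 of histone H3 and a mark of active gene starts. The labels do not name the Cre driver of the knockout, the dose of TSA or whether replicates were separate animals, and cortex without the knockout was not analysed here.

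Voltage-gated channels are built around a pore-forming subunit. Sodium channels start the action potential, calcium channels turn depolarisation into calcium entry that drives transmitter release and gene expression, and potassium channels repolarise the membrane or hold it at rest. Auxiliary subunits carry the pores to the membrane and tune their gating, and electrically silent potassium subunits form no channel alone but alter those they join. In the developing cortex, newborn neurons acquire these channels stepwise as they migrate and mature, and calcium and potassium channels also act in progenitors.

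Channel genes took 0.354% to 0.415% of all counts in the Vehicle libraries and 0.422% to 0.450% in the TSA libraries, whose totals ranged from 6733415 (TSA 1) to 20400727 counts (TSA 3). Neuronal markers, which check the tissue label, were detected in every library, with a summed level of 5761 to 7522 CPM in Vehicle and 7721 to 8247 CPM in TSA, and 4 of 8 of them rose and none fell. CPM are counts scaled to a common library total. Of the interneuron and ganglionic eminence markers, 5 of 6 fell and 1 rose (899 to 1121 CPM in Vehicle, 479 to 694 CPM in TSA), and of the basal progenitor markers 3 of 4 rose (146 to 219 CPM against 439 to 525 CPM). None of these markers was at 0, and the part of such shifts in the channel results was not tested. In whole tissue, fewer cells of a type and less RNA per cell cannot be told apart. Some libraries stood apart. Vehicle 1 and Vehicle 4 held more mitochondrial reads (2.86% and 3.36%) than the other 6 libraries (1.48% to 2%), and Xist, the RNA of the inactive X chromosome, was high in 4 of 4 Vehicle libraries but in 1 of 4 TSA libraries, so that treatment and Xist status could be separated only through TSA 4.

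More channel RNAs rose than fell with TSA, by a margin that depended on the processing. Of the 132 genes, 100 had enough reads to be tested and 32 did not, of which 5 had no read in any library. By edgeR's quasi-likelihood test with an adjusted p under 0.05, 20 of the 100 rose and 7 fell with TSA. Over all 15000 genes tested, 33.0% were called, 15.4% as higher and 17.6% as lower, so the share of channel genes called was below the background. The median log2 fold change (TSA minus Vehicle, as throughout) was 0.06 for channel genes and −0.01 for all tested genes, and called changes had a median size of 0.57 and 0.51 respectively. All 4 TSA libraries lay above all 4 Vehicle libraries in 19 channel genes and below them in 4, where the background was 14.9% and 17.4% of all tested genes. The number of rises was 15 to 23 when single libraries were left out. The number of falls became 11 without Vehicle 2, 4 without Vehicle 3, 3 without TSA 4 and 4 without the pair of mitochondria-rich libraries. With Xist status as a covariate there were 7 rises and 4 falls. Over all 15000 genes tested, that covariate took the rises from 2314 to 757 and the falls from 2640 to 818, so the loss was not particular to channel genes. After removal of a trend with gene span in each library there were 18 rises and 14 falls.

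**Figure D1:**
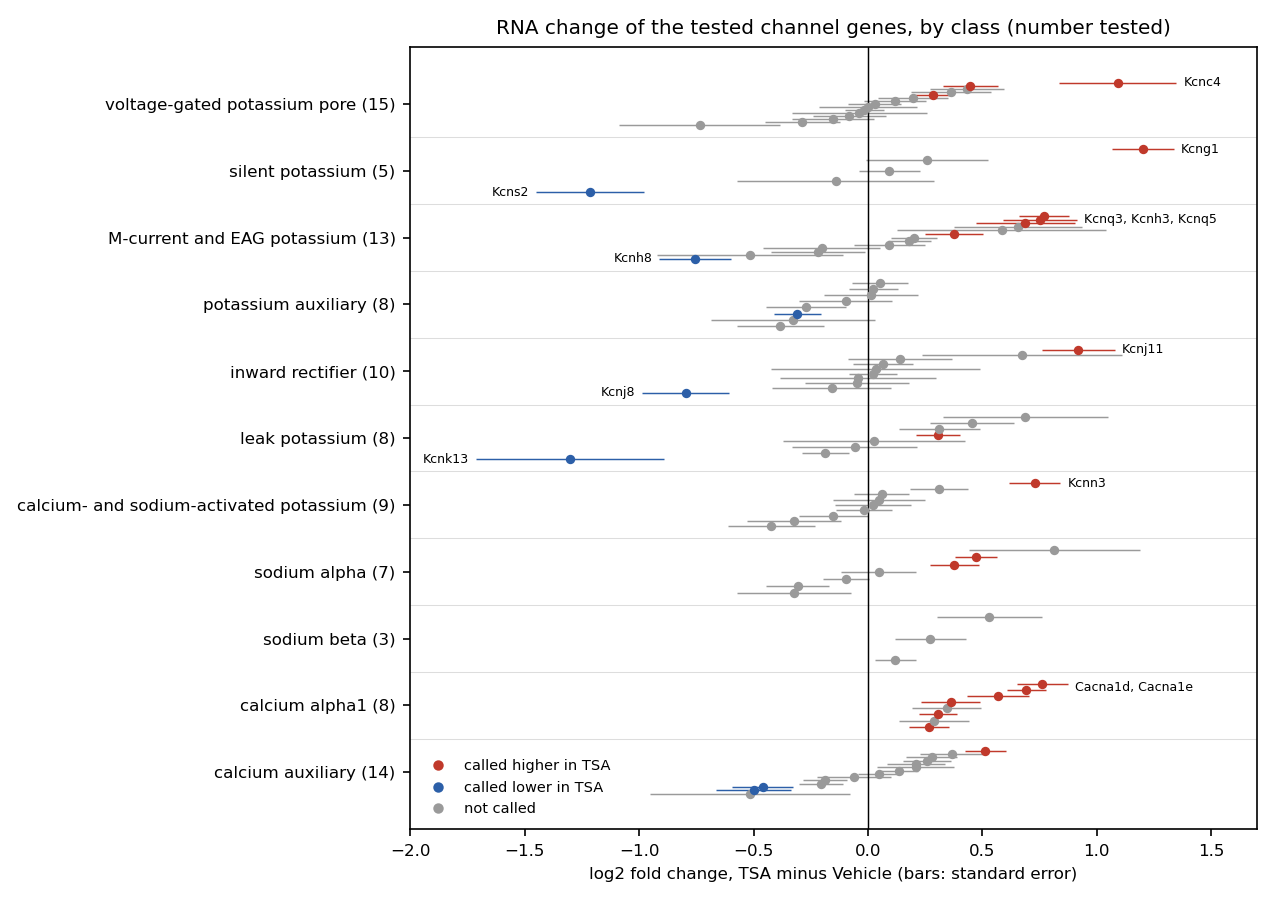
Log2 fold change of each of the 100 tested channel genes (x axis, TSA minus Vehicle, bars showing the standard error), arranged by channel class with the number tested in brackets, with red points for called rises, blue for called falls and grey for genes that were not called. In the calcium alpha1 row all 8 points lie to the right of 0, whereas the silent potassium row holds both the highest point, Kcng1 at 1.20, and one of the lowest, Kcns2 at −1.21.

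Calcium channel pores were the class with the highest share of calls, 6 rises and no fall among 8 tested genes of 10. Their log2 changes ran from 0.27 to 0.76 with a median of 0.35, and their summed level was 580 to 753 CPM in Vehicle and 847 to 991 CPM in TSA, without overlap. All 6 that rose span more than 100 kb, and of all tested genes 31.2% rose between 100 and 300 kb and 33.9% above that. With the span trend removed 3 of the class were called (Cacna1d, Cacna1e and Cacna1i), with Xist status as a covariate 2 (Cacna1d and Cacna1e), and with single libraries left out 4 to 7, all as rises. Cacna1e, the pore of R-type channels, which open at intermediate voltages in neurons, was measured at 155, 148, 134 and 154 CPM in the Vehicle libraries 1 to 4, and at 258, 245, 229 and 224 CPM in the TSA libraries 1 to 4. Every TSA library was above every Vehicle library, and the gene rose by 0.69 ± 0.09 on the log2 scale (SE, n = 4 per group, edgeR adjusted p = 8.04e-05). Cacna1d, an L-type pore that opens near rest, had 39.6, 35.7, 35.2 and 38.9 CPM in Vehicle and 74.4, 68.5, 51.5 and 60.02 CPM in TSA. Again the groups were apart, TSA 3 being the lowest of its group, and the rise was 0.76 ± 0.11 (edgeR adjusted p = 0.000225).

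Cacna1i, a T-type pore that opens at low voltage, had 15.7, 12.6, 14.6 and 15.0 CPM in Vehicle and 26.2, 18.6, 23.0 and 18.9 CPM in TSA. The groups did not overlap, and the gene rose by 0.57 ± 0.14 (edgeR adjusted p = 0.00513). The other T-type pores were not called: Cacna1g went from 61.2 to 77.7 CPM on average (0.34 ± 0.15, adjusted p = 0.0951) and Cacna1h from 155 to 189 CPM (0.29 ± 0.15, adjusted p = 0.167), with overlapping groups in both. Cacna1b, the N-type pore of presynaptic terminals, rose from 109 ± 6.32 to 135 ± 7.49 CPM (SD, n = 4), a change of 0.31 ± 0.08 (edgeR adjusted p = 0.0110). Cacna1c, the other abundant L-type pore of neurons, rose by 0.27 ± 0.09 (edgeR adjusted p = 0.0297), and Cacna1a, the P/Q-type pore of fast synapses, by 0.36 ± 0.13 (edgeR adjusted p = 0.0427). Cacna1b, Cacna1c and Cacna1a were singled out after their values were seen. Without Vehicle 3, TSA 1, TSA 2 or TSA 4 the edgeR adjusted p of Cacna1c was 0.0859, 0.0893, 0.0987 and 0.0657, and for Cacna1a it lay between 0.0691 and 0.122 when Vehicle 2, Vehicle 3, Vehicle 4, TSA 1, TSA 2 or TSA 4 was left out.

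The auxiliary calcium subunits showed less. Of 16 genes 14 were tested, 1 rose and 2 fell, and the median log2 change was 0.09. Cacnb1, a cytoplasmic beta subunit that brings alpha1 pores to the membrane, had 63.2, 50.02, 58.5 and 55.2 CPM in Vehicle and 83.1, 78.1, 79.7 and 83.1 CPM in TSA. All TSA libraries were higher, and the rise was 0.51 ± 0.09 (edgeR adjusted p = 0.000629). Cacnb3, a beta subunit that took more reads than Cacnb1, went from 201 to 240 CPM without passing (0.26 ± 0.10, adjusted p = 0.0694). Cacna2d3, an extracellular alpha2delta subunit, had 35.1, 32.0, 44.1 and 38.9 CPM in Vehicle and 27.6, 27.9, 32.2 and 21.3 CPM in TSA. TSA 3 overlapped the lowest Vehicle library, and the gene fell by 0.46 on the log2 scale with an SE of 0.13 (edgeR adjusted p = 0.0167), a call that ended without Vehicle 3 (0.0592), without TSA 4 (0.0569) and without the mitochondria-rich libraries (0.0522).

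The Cacng genes encode membrane proteins of which most accompany AMPA glutamate receptors at synapses. Cacng4, the member of the class with the highest CPM, was not called, averaging 231 ± 22.8 CPM in Vehicle and 239 ± 11.7 CPM in TSA (0.05 ± 0.09, edgeR adjusted p = 0.722). Cacng5 had 20.3, 20.2, 15.0 and 23.3 CPM in Vehicle and 12.3, 17.5, 10.96 and 14.6 CPM in TSA. The groups overlapped through TSA 2 and Vehicle 3, and the gene fell by 0.50 on the log2 scale with an SE of 0.17 (edgeR adjusted p = 0.0309). That call ended when Vehicle 1, Vehicle 4, TSA 1, TSA 3 or TSA 4 was left out, with adjusted p of 0.0575, 0.104, 0.0904, 0.0969 and 0.0562, and was 0.207 without the mitochondria-rich libraries. Cacng3 had 7.15, 9.73, 12.7 and 11.1 CPM in Vehicle and 12.5, 12.7, 10.8 and 11.1 CPM in TSA, and was not called (0.21 ± 0.17, edgeR adjusted p = 0.376).

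Among the sodium channel alpha subunits 7 of 10 were tested, 2 rose and none fell. Scn2a, which encodes the channel of the axon initial segment in immature excitatory neurons, had 57.8, 54.3, 60.1 and 57.7 CPM in Vehicle and 90.8, 81.2, 77.8 and 69.6 CPM in TSA. Groups were apart, and Scn2a rose by 0.47 ± 0.09 (edgeR adjusted p = 0.00153). Scn8a, whose product takes over at the initial segment as neurons mature, had 119, 87.1, 83.8 and 103 CPM in Vehicle and 134, 127, 122 and 128 CPM in TSA, all higher, with a rise of 0.38 ± 0.11 (edgeR adjusted p = 0.0143). Scn3a, the alpha subunit that marks embryonic brain, had 178, 139, 152 and 182 CPM in Vehicle and 153, 146, 166 and 145 CPM in TSA. Its groups overlapped and it was not called (−0.10 ± 0.10, edgeR adjusted p = 0.511). Scn1a, an alpha subunit on which inhibitory interneurons rely, had 39.5, 26.4, 29.3 and 39.9 CPM in Vehicle and 24.7, 27.3, 30.4 and 26.2 CPM in TSA, and was not called either (−0.31 ± 0.14, edgeR adjusted p = 0.104), but passed as lower with the span trend removed (−0.43, limma adjusted p = 0.0393). In the same libraries 5 of 6 interneuron and ganglionic eminence markers fell and Lhx6 rose, and their part in the level of Scn1a was not tested. The beta subunits, which link sodium channels to adhesion and trafficking, had 3 of 4 genes tested and none called by edgeR at an adjusted p under 0.05, and Scn3b, the one with the highest CPM, averaged 186 ± 11.1 CPM in Vehicle and 202 ± 18.1 CPM in TSA (0.12 ± 0.09, adjusted p = 0.334).

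Voltage-gated potassium pores, which repolarise the action potential, gave 3 rises and no fall among 15 tested genes of 17. The rises were 20% of the class, near the background of 15.4%, and 17.6% of all tested genes fell. No rise was left with Xist status as a covariate, and 3 to 5 were with single libraries left out. There was 1 fall without Vehicle 1, without Vehicle 2 and with the span trend removed. Kcnc4, of the Kv3 family of rapidly activating channels, had 2.20, 1.93, 3.79 and 2.30 CPM in Vehicle and 7.77, 4.46, 5.48 and 4.63 CPM in TSA. Despite these low levels the groups were apart, and the gene rose by 1.09 ± 0.26 (edgeR adjusted p = 0.00492). Kcnc1, which supports fast firing and was singled out after its values were seen, rose by 0.28 ± 0.08 (edgeR adjusted p = 0.0128). Kcnd3, the A-type pore that had the highest CPM of the class, averaged 101 ± 4.84 CPM in Vehicle and 99.7 ± 8.61 CPM in TSA (−0.02 ± 0.09, edgeR adjusted p = 0.911), and none of the 6 tested Kcna genes was called.

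The electrically silent subunits moved in both directions. Kcng1, which joins voltage-gated pores and alters their gating, had 17.4, 17.6, 21.3 and 13.9 CPM in Vehicle and 41.2, 42.1, 33.3 and 45.3 CPM in TSA. Even the lowest TSA library, TSA 3, was well above every Vehicle library, and the rise of 1.20 ± 0.14 was the highest of all channel genes (edgeR adjusted p = 4.87e-05). Kcns2, another such silent subunit, had 3.71, 6.58, 6.54 and 6.89 CPM in Vehicle and 2.44, 2.88, 2.86 and 1.94 CPM in TSA. The groups were apart, with Vehicle 1 nearest to the TSA libraries, and the gene fell by 1.21 on the log2 scale with an SE of 0.24 (edgeR adjusted p = 0.00147). Of the other 8 silent genes 3 were tested and not called by edgeR at an adjusted p under 0.05.

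All 13 genes of the M-current and EAG families were tested, of which 4 rose and 1 fell. The rises were 30.8% of the class, where 15.4% of all tested genes rose and 17.6% fell. Adjusting for Xist status left 1 rise, and limma-voom or removal of the span trend left 2. Leaving out single libraries gave 2 to 4 rises, the lowest number being reached without Vehicle 2, TSA 1 or TSA 2. Adjusting for lane gave 5, as did leaving out the mitochondria-rich libraries. The M-current is a slow potassium current that damps repetitive firing, and Kcnq3 encodes a main subunit of its channel. Kcnq3 had 171, 191, 148 and 136 CPM in Vehicle and 292, 279, 247 and 283 CPM in TSA. The lowest TSA library exceeded the highest Vehicle library by a wide margin, and Kcnq3 rose by 0.77 ± 0.11 (edgeR adjusted p = 0.000177). Kcnh3, an EAG-type channel of forebrain neurons, had 15.6, 11.2, 9.85 and 11.2 CPM in Vehicle and 25.5, 17.3, 18.5 and 20.1 CPM in TSA. The groups were apart, with a rise of 0.75 ± 0.16 (edgeR adjusted p = 0.00280). Kcnh8, of the same subfamily, had 13.2, 11.99, 14.2 and 14.2 CPM in Vehicle and 6.25, 8.25, 9.83 and 6.88 CPM in TSA. All TSA libraries were lower, and Kcnh8 fell by 0.76 on the log2 scale with an SE of 0.16 (edgeR adjusted p = 0.00208).

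Kcnq5, a further M-current subunit, rose by 0.69 ± 0.21 (edgeR adjusted p = 0.0243) and was singled out after its values were seen. Kcnq5 had 13.1 CPM in TSA 3 against 25.6, 29.2 and 18.1 CPM in the other TSA libraries and 11.4 to 16.1 CPM in Vehicle. The groups overlapped. Without Vehicle 2, Vehicle 4, TSA 1 or TSA 2 the adjusted p of Kcnq5 was 0.0807, 0.0784, 0.0714 and 0.0967 and without the mitochondria-rich libraries 0.190.

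Calcium- and sodium-activated potassium channels, which couple firing or calcium entry to a potassium current, gave 1 rise among 9 tested genes of 12. Kcnn3, a small-conductance calcium-activated channel of the afterhyperpolarisation, had 38.1, 34.0, 25.7 and 32.6 CPM in Vehicle and 57.9, 53.1, 54.0 and 51.5 CPM in TSA. The TSA libraries were close to each other and all above Vehicle, and the gene rose by 0.73 ± 0.11 (edgeR adjusted p = 0.000314). Its paralogs Kcnn1 (19.4 to 20.3 CPM) and Kcnn2 (25.3 to 24.9 CPM) were not called, with edgeR adjusted p of 0.743 and 0.935. Kcnma1, the BK pore, was at 15.6 and 19.3 CPM (0.31 ± 0.13, edgeR adjusted p = 0.0730).

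The inward rectifiers, which hold the resting potential, held a pair of pores of ATP-sensitive potassium channels that moved in opposite directions. Kcnj11, the pore found in neurons, had 8.66, 8.32, 6.96 and 7.84 CPM in Vehicle and 17.4, 12.3, 12.9 and 18.1 CPM in TSA. All TSA libraries were above Vehicle, TSA 1 and TSA 4 the most, and Kcnj11 rose by 0.92 ± 0.16 (edgeR adjusted p = 0.000632). Kcnj8, the pore found in pericytes and vascular muscle, had 8.18, 8.83, 12.2 and 12.03 CPM in Vehicle and 5.79, 6.5, 6.91 and 4.38 CPM in TSA. The groups did not overlap, and Kcnj8 fell by 0.80 on the log2 scale with an SE of 0.19 (edgeR adjusted p = 0.00535). Of the pericyte and smooth muscle markers 5 of 6 were tested: Rgs5 fell from 136 to 70.1 CPM, Cspg4 rose from 8.29 to 11.8 CPM, and Pdgfrb (31.5 and 28.2 CPM) and Abcc9, which encodes the regulatory partner of Kcnj8 (26.7 and 28.3 CPM), were not called. Their summed level was 163 to 229 CPM in Vehicle and 119 to 169 CPM in TSA, Acta2 was at or near 0 (0 to 10 reads a library) and none of the others was at 0, and their part in the fall of Kcnj8 was not tested.

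The other inward rectifiers, 8 of them tested, were not called by edgeR at an adjusted p under 0.05. Kcnj10, a channel of glia and the inward rectifier with the highest CPM, had 28.4, 39.7, 28.1 and 28.8 CPM in Vehicle and 31.9, 38.4, 30.1 and 30.6 CPM in TSA (0.07 ± 0.13, edgeR adjusted p = 0.740). Kcnj5, a subunit gated by G proteins, averaged 4.22 ± 0.905 CPM in Vehicle and 4.05 ± 0.955 CPM in TSA (−0.05 ± 0.23, edgeR adjusted p = 0.897).

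Leak channels of the Kcnk family, which stay open at rest, gave 1 rise and 1 fall among 8 tested genes of 14. Kcnk10, a channel opened by stretch and lipids, had 23.0, 23.9, 22.6 and 22.9 CPM in Vehicle and 28.4, 30.3, 26.4 and 29.1 CPM in TSA. The Vehicle libraries were nearly equal and all lower, and the rise was 0.31 ± 0.10 (edgeR adjusted p = 0.0248). Without Vehicle 3, TSA 1, TSA 2 or TSA 4 the adjusted p was 0.0540, 0.0509, 0.0899 and 0.0652, and without the mitochondria-rich libraries it was 0.0609. Its relative Kcnk2, with the highest CPM of the class, averaged 55.9 ± 5.28 CPM in Vehicle and 49.1 ± 5.24 CPM in TSA (−0.19 ± 0.10, edgeR adjusted p = 0.182), and was called as a fall (−0.34, limma adjusted p = 0.0116) once each library's trend over gene span was removed. Kcnk13, known as the resting channel of microglia, had 1.31, 0.902, 1.65 and 2.22 CPM in Vehicle and 1.22, 0.339, 0.494 and 0.688 CPM in TSA. TSA 1 overlapped the Vehicle libraries, and the change of −1.30 ± 0.41 (edgeR adjusted p = 0.0247) lost its call without Vehicle 3, Vehicle 4, TSA 2, TSA 3 or TSA 4 (adjusted p of 0.0570, 0.0946, 0.0974, 0.0735 and 0.0506) and without the mitochondria-rich libraries (0.139). All 5 microglial markers were detected, with a summed level of 25.6 to 37.4 CPM in Vehicle and 23.8 to 33.1 CPM in TSA, of which Aif1 fell (1.86 to 0.596 CPM) and 4 were not called, and their part in the fall of Kcnk13 was not tested.

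Potassium auxiliary subunits gave no rise and 1 fall among 8 tested genes of 11. Kcnip3, a calcium-binding protein that joins A-type pores and is also known to bind DNA, had 45.9, 57.6, 47.3 and 42.0 CPM in Vehicle and 40.5, 38.2, 38.7 and 38.5 CPM in TSA. All TSA libraries were lower, the nearest being TSA 1 and Vehicle 4, and the gene fell by 0.31 on the log2 scale with an SE of 0.10 (edgeR adjusted p = 0.0320). The call ended without Vehicle 2 (0.0825), Vehicle 3 (0.0539) or any of TSA 1 to 4 (0.0647, 0.0945, 0.0649 and 0.0761). The summed level of the class was 133 to 141 CPM in Vehicle and 123 to 133 CPM in TSA.

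**Figure D2:**
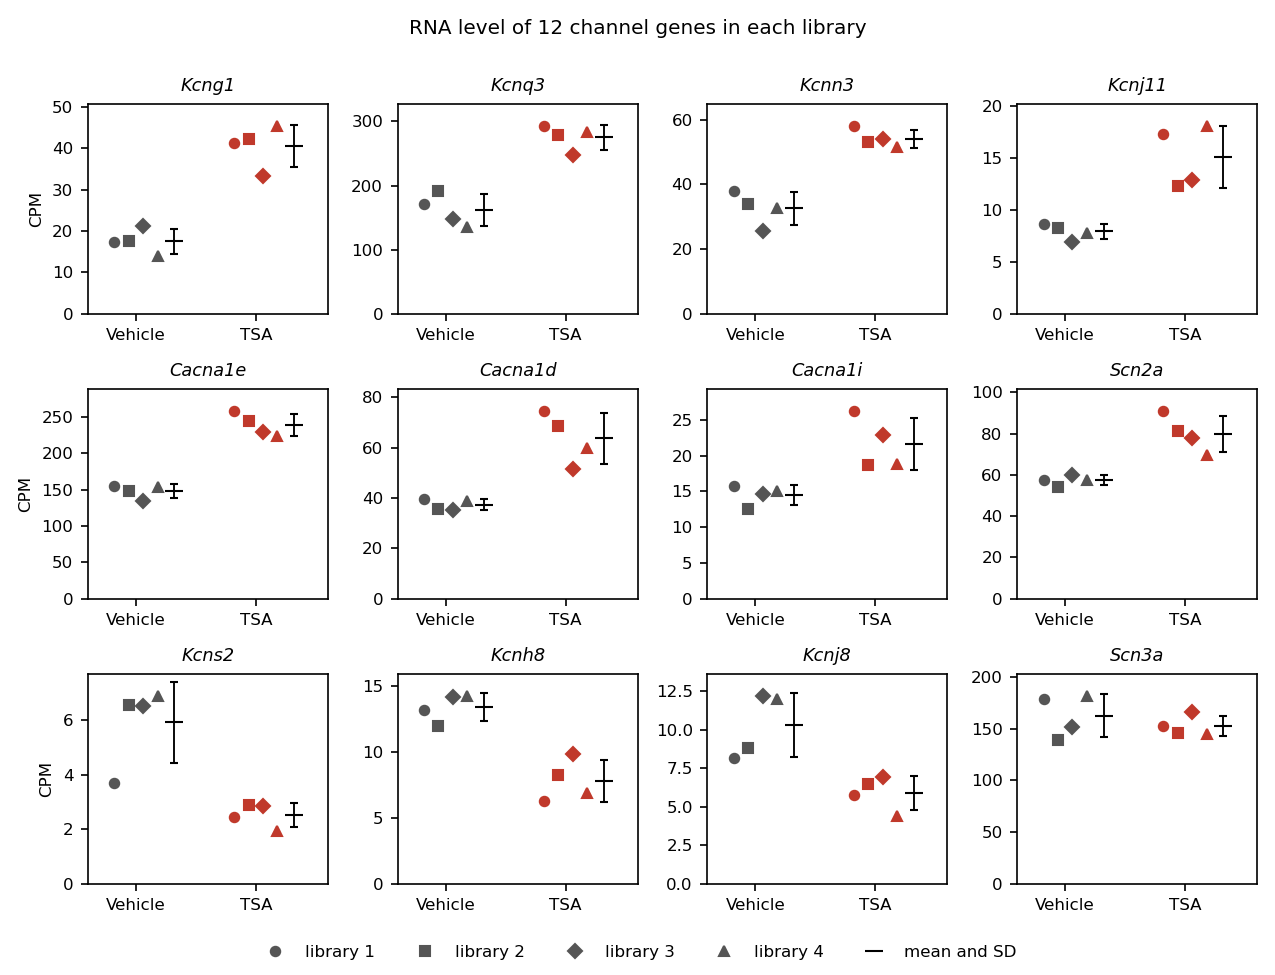
RNA level in CPM (y axis, from 0) of 12 channel genes in the 4 Vehicle (grey) and 4 TSA libraries (red), with a marker shape for each library number and the mean and SD beside each group. The TSA libraries lie above the Vehicle libraries in the first 8 panels and below them in Kcns2, Kcnh8 and Kcnj8, while in Scn3a the groups overlap.

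Across processing alternatives, Cacna1d, Cacna1e, Cacnb1, Kcng1, Kcnh8, Kcnj11, Kcnj8, Kcnn3, Kcnq3 and Kcns2 passed the threshold in every one of the 18 tried. Of the 27 called genes, 16 lost their call with Xist status as a covariate, and for Cacna1i, Kcnc1, Kcnc4, Kcnh3 and Scn2a this was the only alternative that did so (edgeR adjusted p of 0.263, 0.254, 0.181, 0.0731 and 0.222). Without a filter on low counts Cacna1c and Kcnk10 lost theirs (edgeR adjusted p of 0.0551 and 0.0770), and with limma-voom Kcnq5 did (adjusted p = 0.0646). No called gene changed direction in any of the 18 alternatives.

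Other genes tied to membrane excitability were taken from a list of 57 (pumps, intracellular calcium release channels, scaffolds of the axon initial segment, channel regulators, and Rest with its corepressors Rcor1 and Sin3a, which silence neuronal genes). Of these 52 were tested, 14 rose, Rcor1 among them, and 5 fell, where the background was 15.4% and 17.6% of all tested genes, with a median log2 change of 0.20 against −0.01 for all tested genes. Ank3, which encodes ankyrin-G, the scaffold that anchors sodium and Kcnq channels at the initial segment, had 419, 433, 363 and 402 CPM in Vehicle and 782, 745, 712 and 727 CPM in TSA. All TSA libraries were higher, and Ank3 rose by 0.88 ± 0.09 (edgeR adjusted p = 3.89e-05). Nfasc, an adhesion molecule of the same structure, rose by 0.61 ± 0.11 (edgeR adjusted p = 0.000840), and Atp2b2, a plasma membrane calcium pump, by 0.49 ± 0.08 (edgeR adjusted p = 0.000597). Gem, a small GTPase that binds calcium channel beta subunits and inhibits the channels, had 2.41, 2.26, 2.14 and 1.35 CPM in Vehicle and 6.40, 5.65, 4.20 and 7.06 CPM in TSA, a rise of 1.49 ± 0.24 (edgeR adjusted p = 0.000397).

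Channel genes are long, and in these libraries long genes rose more often. The median genomic span of the tested channel genes was 62.2 kb, against 24.2 kb for all tested genes with a known span. Among channel genes under 30 kb 5 rose and 2 fell of 31, against 9.29% and 23.2% of all genes of that span. From 30 to 100 kb 3 rose and 3 fell of 29 (21.1% and 14.4% of all genes). Between 100 and 300 kb 6 rose and none fell of 19 (31.2% and 6.97% of all genes), and over 300 kb 6 rose and 2 fell of 21 (33.9% and 6.94%). Short channel genes that rose included Kcnj11 and Kcng1, and the long ones Cacna1e and Kcnq3. With each library's trend over span removed the log2 change of Cacna1c was 0.03 (limma adjusted p = 0.883), of Cacna1a 0.20 (0.356), of Cacna1b 0.18 (0.138), of Kcnk10 0.18 (0.175), of Kcnq5 0.41 (0.177) and of Scn8a 0.25 (0.126), none of them called.

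H3K9ac was compared by the presence of peaks, since the deposited lists were called separately in each library. The lists held from 22668 peaks (Vehicle 4) to 61217 peaks (TSA 4), and a gene start was counted as occupied where a peak lay within 1 kb of it. Starts were listed for 97 of the 132 channel genes. All 8 lists had a peak at 32 of them (33.0%, against 44.7% of 17492 protein-coding genes), and no list had one at 21 (21.6% against 34.2%), so channel starts were more often occupied in some lists only. In Vehicle 1 to 4 there were 58, 58, 61 and 39 occupied channel starts and in TSA 1 to 4 there were 65, 64, 54 and 72. Vehicle 4 and TSA 3, the lists with the fewest peaks of their groups, were lowest here too.

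Among channel genes, occupied starts went with detected RNA, and the same comparison was not made for all protein-coding genes. Each of the 32 channel genes occupied in all 8 lists had enough reads to be tested, among them Cacnb1, Kcnn3, Kcnk10, Scn8a, Kcnh8 and Kcnip3, and 8 of them rose and 3 fell. Of the 44 occupied in 1 to 7 lists 34 were tested, with 5 rises and 3 falls. Of the 21 without a peak 4 were tested and none was called. Over all 15000 genes tested, whatever their occupancy, 15.4% were called as higher and 17.6% as lower. Kcnh8 and Kcnk13, whose RNA fell, had a peak at the start in all 4 Vehicle and all 4 TSA lists, and Kcnj8, whose RNA also fell, in 2 Vehicle and 4 TSA lists.

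**Figure D3:**
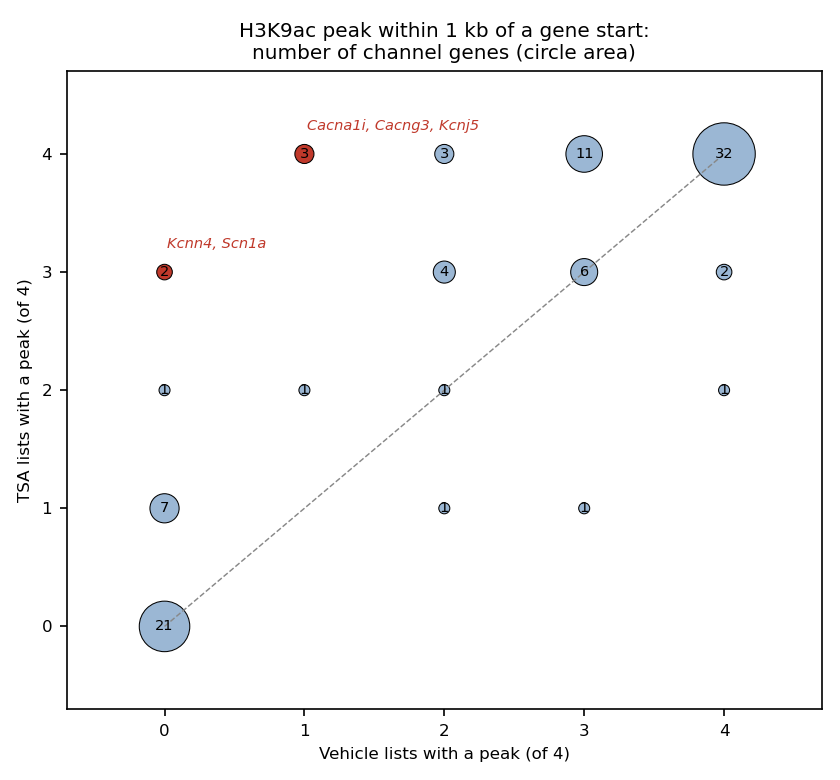
Number of Vehicle lists (x axis) and of TSA lists (y axis) with an H3K9ac peak within 1 kb of the start, for the 97 channel genes with a listed start. Circle area and the printed number give the count of genes, the dashed line marks equal occupancy, and the red circles hold the 5 genes occupied in at least 3 more TSA than Vehicle lists.

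A peak was found in at least 3 more TSA than Vehicle lists at 5 of the 97 starts, where the background was 0.703% of all protein-coding genes, and in at least 3 fewer at none, where the background was 0.0400%. Cacna1i, Cacng3 and Kcnj5 were occupied in 1 Vehicle list and in all 4 TSA lists, and Scn1a and Kcnn4, a calcium-activated channel of blood and epithelial cells, in no Vehicle list and in 3 TSA lists. These peaks were small. Values are for the peak with the highest fold enrichment within 1 kb of the start in each of the authors' lists. At Cacna1i it was 256 bp wide with a fold enrichment of 4.14 in Vehicle 3. In TSA 1 to 4 the widths were 341, 255, 221 and 498 bp, with 4.37, 5.01, 3.43 and 5.77. These were not all the same peak. Those of Vehicle 3, TSA 1 and TSA 2 overlapped, before the start. Those of TSA 3 and TSA 4 lay inside the gene, and neither list had a peak at the Vehicle 3 position. At Cacng3 the width was 147 bp in Vehicle 1 and 712, 342, 332 and 503 bp in TSA 1 to 4, and the TSA 2 peak did not overlap that of Vehicle 1. At Scn1a the width was 203, 173 and 177 bp in TSA 1, TSA 3 and TSA 4. Of the 5 genes Cacna1i alone was called in RNA. Kcnn4 had 0 to 4 counts in any library and was not tested. With lists left out, starts were compared by the share of each group's lists with a peak, a difference of 3 in 4 lists being the limit. By that measure the count of 5 became 3 without Vehicle 1, 2 without Vehicle 2, 2 without Vehicle 4, 3 without TSA 1 and 3 without TSA 3. By the number of lists alone, leaving out a Vehicle list would remove none of the 5. Without both Vehicle 4 and TSA 3 no start differed by all 3 lists.

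The 250 bases before each start are shown for 4 of these genes (Cacna1i, Kcnj5, Kcnn4 and Scn1a), with Kcnn3, occupied in all 8 lists, and the Scn2a start that was occupied in no Vehicle and 3 TSA lists, for comparison of their CpG content. Scn2a has 2 listed starts, and over both it was occupied in 2 Vehicle and 3 TSA lists. The sequences are from RefSeq on GRCm38.p6 (the mm10 build), are written 5′ to 3′ on the gene's strand, and have each CpG dinucleotide in capitals.
Cacna1i, chr15:80286988-80287237, plus strand: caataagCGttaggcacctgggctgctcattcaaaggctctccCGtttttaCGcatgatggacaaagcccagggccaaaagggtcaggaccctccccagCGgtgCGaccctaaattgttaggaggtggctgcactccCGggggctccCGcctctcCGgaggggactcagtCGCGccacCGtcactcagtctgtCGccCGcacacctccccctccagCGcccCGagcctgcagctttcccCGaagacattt
Kcnj5, chr9:32344345-32344594, minus strand: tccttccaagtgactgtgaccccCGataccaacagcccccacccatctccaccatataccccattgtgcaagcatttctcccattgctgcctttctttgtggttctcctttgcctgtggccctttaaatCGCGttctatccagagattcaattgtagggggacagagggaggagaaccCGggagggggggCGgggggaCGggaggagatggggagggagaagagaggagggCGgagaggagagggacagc
Kcnn4, chr7:24370013-24370262, plus strand: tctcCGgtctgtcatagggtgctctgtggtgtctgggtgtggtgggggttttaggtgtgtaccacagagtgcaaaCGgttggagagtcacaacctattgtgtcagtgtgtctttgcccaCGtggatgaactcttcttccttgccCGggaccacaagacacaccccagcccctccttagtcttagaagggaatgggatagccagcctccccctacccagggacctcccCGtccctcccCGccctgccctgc
Scn1a, chr2:66440838-66441087, minus strand: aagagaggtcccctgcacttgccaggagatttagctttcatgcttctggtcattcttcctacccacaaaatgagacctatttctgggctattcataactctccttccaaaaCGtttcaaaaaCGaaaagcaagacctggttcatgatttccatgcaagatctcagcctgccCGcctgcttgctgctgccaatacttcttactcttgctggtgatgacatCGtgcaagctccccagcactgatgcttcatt
Kcnn3, chr3:89519914-89520163, plus strand: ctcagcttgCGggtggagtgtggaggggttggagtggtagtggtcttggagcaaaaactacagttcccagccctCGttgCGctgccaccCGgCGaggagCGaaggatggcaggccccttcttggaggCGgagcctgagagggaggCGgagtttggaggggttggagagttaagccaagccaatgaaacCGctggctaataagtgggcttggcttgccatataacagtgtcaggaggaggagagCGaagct
Scn2a, chr2:65620519-65620768, plus strand: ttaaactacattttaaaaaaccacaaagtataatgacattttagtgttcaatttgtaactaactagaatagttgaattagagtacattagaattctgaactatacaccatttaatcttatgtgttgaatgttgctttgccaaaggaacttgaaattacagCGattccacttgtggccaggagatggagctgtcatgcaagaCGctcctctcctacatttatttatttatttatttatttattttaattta

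Most of these starts were poor in CpG. Scn2a held 2, Scn1a 4, Kcnn4 6 and Kcnj5 7 CpG, Kcnn3 held 10, and Cacna1i held 16. The median was 16 for the 42 starts of channel genes occupied in all 8 lists, 9 for the 56 occupied in 1 to 7 lists and 3 for the 35 in none, and 18, 11 and 2 for the starts of all protein-coding genes. The GC box GGGCGG, searched on both strands, was in 50% of the channel starts occupied in all 8 lists, 50% of those in 1 to 7 lists and 20% of those in none, against 63.4%, 51.9% and 10% of all starts. The E-box CAGATG, also on both strands, was in 14.3% of all channel starts and in 12.4% of all starts.

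**Figure D4:**
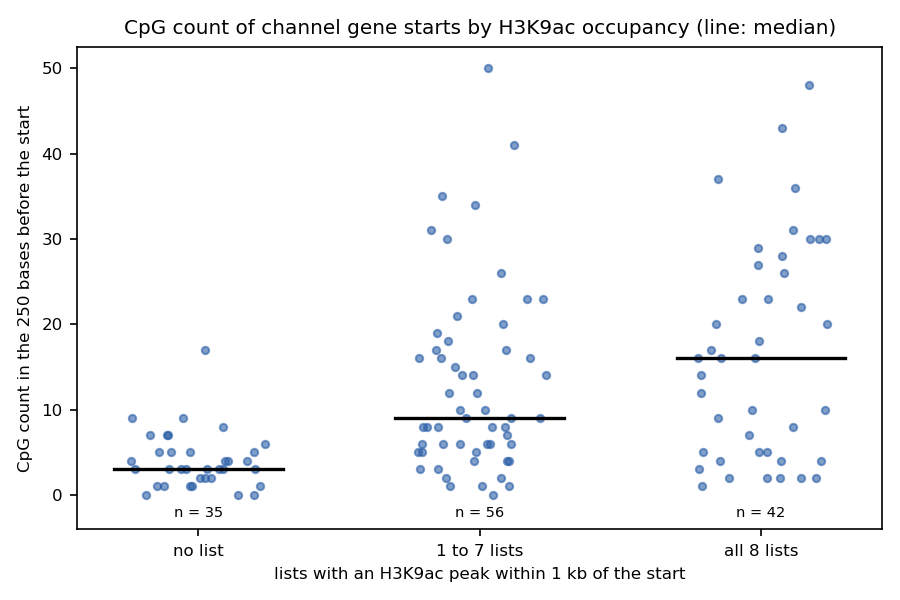
CpG count in the 250 bases before each listed start of a channel gene (y axis; several genes have more than 1 start), grouped by the number of lists with an H3K9ac peak within 1 kb of that start, with a line at the median. The medians are 3, 9 and 16 CpG for no list, 1 to 7 lists and all 8 lists, and the groups overlap widely.

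Since 35 channel genes had no listed start, both ends of the gene span were also examined, in all 132 channel genes. With either end counted, 6 of 132 channel genes were occupied in at least 3 more TSA lists (background 0.800%) and none in at least 3 fewer (background 0.0640%). These were Cacna1i, Cacng3, Kcnj5, Scn1a, Scn2a and Kcng1, of which Cacna1i, Scn2a and Kcng1 also rose in RNA. Kcng1 alone of them lacked a listed start, and Cacna1i, Cacng3, Kcnj5 and Scn1a had already been counted at theirs.

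Within gene bodies, merging the peaks of the 8 lists gave 909 regions in 120 channel genes. Of these, 66 were present in all 8 lists and 541 in a single list. Regions found in at least 3 more TSA lists numbered 18 in 16 channel genes, or 1.98% of the regions, where the background was 1.69% of regions in protein-coding genes, and 1 region, in Cacna1g, was found in 3 fewer (background 0.203%). The share of channel regions gained was thus near that of all genes. Without Vehicle 4 and TSA 3, 13 channel regions were in all 3 remaining TSA lists and in no Vehicle list (1.43%, against 0.825% of all regions).

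Several gained regions lay in genes whose RNA rose. Kcng1 had a pair of them at the high-coordinate end of its span (chromosome 2, 168260117 to 168281533, mm10), one from 168279797 to 168281080 in no Vehicle and 3 TSA lists, the other from 168281179 to 168281678 in 1 Vehicle and 4 TSA lists. In TSA 4 the first was a single peak of 1284 bp with a fold enrichment of 9.61. In Kcnj11 (chromosome 7, 46097123 to 46100952) the region from 46097401 to 46098308 was in no Vehicle and all 4 TSA lists. In Cacna1i the region from 80287731 to 80288474 on chromosome 15, 493 bp inside the listed start, was likewise in no Vehicle and all 4 TSA lists. Scn2a had a region from 65620808 to 65621703 on chromosome 2, beside a listed start, in no Vehicle and 3 TSA lists. Kcnn3 had a pair and Kcnk10, Scn8a and Cacna1c had a gained region each, all in no Vehicle and 3 TSA lists.

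Gained regions were also found where RNA did not rise. Kcnip3, whose RNA fell, had a region in 1 Vehicle and 4 TSA lists (chromosome 2, 127518209 to 127518835). In Cacna2d2, which encodes an alpha2delta subunit and was not called in RNA (0.21 ± 0.13, edgeR adjusted p = 0.231), a region was in no Vehicle and all 4 TSA lists (chromosome 9, 107526523 to 107527154). Kcnd3, Kcnab2 and Kcnip2, with no RNA call, and Cacna2d4, which was not tested, each had a region in no Vehicle and 3 TSA lists. So did Scn1a, near its start, and Cacng3 had a region at its start in 1 Vehicle and 4 TSA lists. Neither Scn1a nor Cacng3 was called in RNA.

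**Figure D5:**
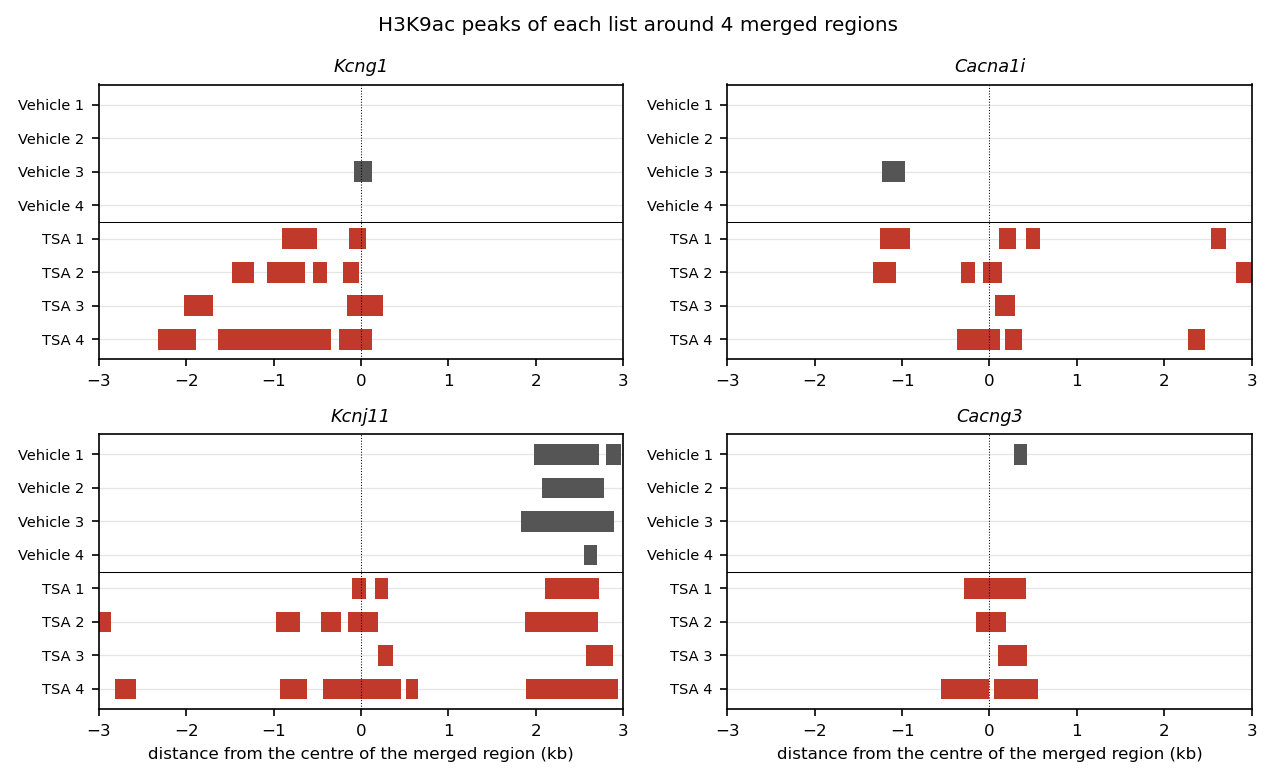
H3K9ac peaks of the 8 lists (rows, Vehicle in grey and TSA in red) within 3 kb of the centre of a gained region in Kcng1, Cacna1i, Kcnj11 and Cacng3, with distance in kb along the x axis and bar length showing peak width. The gained peaks lie at the centre in the TSA rows, and in Kcnj11 a peak about 2 kb to the right is present in all 8 lists.

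The share of channel gene span covered by peaks was 0.561%, 0.611%, 0.714% and 0.238% in Vehicle 1 to 4 and 0.748%, 0.830%, 0.436% and 1.16% in TSA 1 to 4. The groups overlapped through TSA 3, and the means were 0.531 ± 0.206% and 0.793 ± 0.297% (SD, n = 4). The lists differed in the total length called, 8.16 to 19.3 Mb in Vehicle and 12.5 to 26.3 Mb in TSA, with mean peak widths in channel genes of 313 to 386 bp. Of all covered sequence, channel genes held 0.491% to 0.625% in Vehicle and 0.589% to 0.743% in TSA, again with overlap. Kcnn3 was among the genes with the most peaks, with 8, 16, 11 and 5 in Vehicle and 13, 20, 12 and 25 in TSA, and peaks covered 1.91 to 5.22 kb of its span in Vehicle and 4.26 to 9.48 kb in TSA. In Kcng1 peaks covered 0, 0, 0.180 and 0 kb in Vehicle 1 to 4 and 0.596, 1.85, 0.598 and 2.997 kb in TSA 1 to 4, without overlap. This coverage includes the gained regions of Kcng1 described above and is not a separate result. In other genes whose RNA rose the groups overlapped. Peaks covered 0.154 to 1.06 kb of Kcnj11 in Vehicle and 0.478 to 2.21 kb in TSA. For Kcnq3 the ranges were 0.275 to 1.2 kb and 0.597 to 2.11 kb.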

How the data were processed

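The authors deposited unnormalized read counts of Ensembl genes, 1 file per library. Per the labels' protocols the kit was unstranded, so reads of a gene and its antisense partner mix, and those of similar channel paralogs could have been split. The submitters' processing notes name mm10 and SAMtools. For the RNA aligner and counter, the sources used here give no name. Peaks were called in each library with MACS2 2.1.0.20140616 at a q-value limit of 0.1 against the same input of 18937878 tags, with 50 bp tags and duplicates cut to 1 at a position, per the file headers. Each deposited list gives pileup signal, a fold enrichment (a ratio), −log10 p-value and −log10 q-value, and widths and fold enrichments describe a peak within its own list. The 2 inputs of the labels were not analysed here.

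Groups follow the sample titles. The submitters' library names give the same treatments but also carry an unexplained letter, M for Vehicle and V for TSA, and no gene here checks the treatment, so an exchange of labels, which would turn each direction, was not tested. Symbols came from a gene name table that matched 47224 of 47729 IDs, and gene spans and starts from RefSeq on GRCm38.p6. Counts were tested with edgeR 4.0.16 (filterByExpr, TMM, robust quasi-likelihood test, Benjamini-Hochberg over 15000 genes, adjusted p under 0.05 called). The SE is the size of the log2 change divided by the square root of F. The p-values reflect only how these libraries vary, which may be technical, and all pairs of replicates differed by more than sampling noise. DESeq2 1.42.0 and limma 3.58.1 were alternatives, along with other filters, covariates and libraries left out. The span trend was removed from log2 CPM and tested with limma. Peaks were merged where they overlapped.

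Members, gene lists and tests were chosen with earlier results of these data known. Genes named were, per class, up to 2 rises and 2 falls with the smallest p and the gene with the highest CPM, each gene whose start differed in H3K9ac, and 4 other excitability genes. Of the 27 called genes, 6 fell outside this rule, and a few genes it takes are not reported here. CPM scales with transcript length, so levels of different genes are not ranked. Either-end windows, and regions and coverage without the shortest lists, were added after seeing the data.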

Additional observations from a re-analysis of the deposited data

Results flagged for a closer look

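Among 62 groups of 4 libraries examined for the named genes, 3 held a library far from the other three, and chance flags about 1 in 20 groups. Kcnj10, the glial inward rectifier, had 39.7 CPM in Vehicle 2 against 28.1 to 28.8 CPM in the other Vehicle libraries. Kcns2, the silent subunit that fell, had 3.71 CPM in Vehicle 1 against 6.54 to 6.89 CPM in the others. Scn3b, the sodium beta subunit with the highest CPM, had 202 CPM in Vehicle 3 against 180 to 181 CPM in the others. Kcns2 was still called as lower without Vehicle 1, and Kcnj10 and Scn3b were not called with all libraries.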

How the results depend on the processing

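Of 486 combinations of a called channel gene and an alternative, 411 stayed past the threshold, 75 did not and 0 changed direction. The counts of 20 rises and 7 falls became 7 and 4 with Xist status as a covariate, while those over all 15000 genes went from 2314 and 2640 to 757 and 818. The falls became 4 without both mitochondria-rich Vehicle libraries, 14 with the span trend removed, and 3 to 11 with single libraries left out. Whether the replicate numbers shared between groups pair the libraries could not be settled. Correlations between same-numbered libraries were low but positive (0.123, 0.094, 0.088 and 0.097), and some libraries but not all correlated best with their own number. With the replicate number as a block 25 channel genes rose and 7 fell, and over all 15000 genes 2598 rose and 2744 fell. Of the 27 calls that of Kcnq5 alone ended (edgeR adjusted p = 0.0523). The 5 starts in more TSA lists became 3 within 500 bp and 0 without the shortest list of each group. With single lists left out, and shares of lists compared, they became 2 to 4, and the 0 in fewer became 0 to 1. The causes were not tested, except that with 3 lists in both groups a difference of 3 needs every list. A share of lists also shifts when a list is left out, even where no peak differs. RLE scaling, DESeq2, limma-voom, the other filters and lane as a covariate gave 20 to 24 rises and 7 to 8 falls. Depth limits the 32 untested genes (up to 89 reads over 8 libraries), for which no statement on change is made.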

Other observations

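Some channel genes without enough reads for the RNA test still carried H3K9ac at their starts. Of the 27 such genes with a listed start, 17 had no peak in any list, none had one in all 8 lists, and 10 had one in some lists. Cacna1s, the L-type pore of skeletal muscle, was occupied in 3 Vehicle lists and 1 TSA list, and Kcnk4, a mechanically gated leak channel, in 3 Vehicle and 4 TSA lists. These genes were chosen after their values were seen.

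A pair of channel genes lay wholly higher in TSA without being called. Kcnk3, an acid-sensitive leak channel, had 3.30 to 4.34 CPM in Vehicle and 4.42 to 5.53 CPM in TSA (0.46 ± 0.18, edgeR adjusted p = 0.0717). Scn11a, a sodium channel of sensory neurons, had 0.387 to 0.62 CPM in Vehicle and 0.750 to 1.37 CPM in TSA (0.81 ± 0.37, edgeR adjusted p = 0.111), which rests on 6 to 16 reads per library.

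Excitability genes outside the channel families that fell included Atp1b1, a subunit of the sodium pump (−0.71 ± 0.13, edgeR adjusted p = 0.000888), Calm2, which encodes calmodulin (−0.46 ± 0.09, adjusted p = 0.00169), Cntnap2, an adhesion protein that clusters potassium channels (−0.51 ± 0.15, adjusted p = 0.0162), and Slc12a2, a chloride importer of immature neurons (−0.33 ± 0.08, adjusted p = 0.00496).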
